A study of Homo sapiens with 4 samples.

Results

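The 220 long noncoding RNAs (lncRNAs) described here were the well-expressed lncRNAs of Reh-6-MPR cells. They were selected by the biotype lncRNA in the deposited table and by a mean of at least 5 FPKM over the 4 libraries, after the host genes of small nucleolar RNAs had been set aside. FPKM is a read count scaled to the length of the gene and to the sequencing depth. The 220 members came from 7722 lncRNAs and 29833 genes in all. A further 15 lncRNAs above the same level were excluded as snoRNA hosts, namely those with a symbol beginning SNHG and GAS5, ZFAS1, EPB41L4A-AS1 and DANCR. Since the level itself chose the members, their levels are given as a description.

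Reh is an established cell line from human B-cell acute lymphoblastic leukemia (B-ALL), and Reh-6-MPR is its derivative resistant to 6-mercaptopurine (6-MP), a purine analogue used in leukemia maintenance therapy. The labels give the genotype of every library as WT and the cell line as Reh with resistance to 6-MP. All 4 libraries therefore came from a single resistant line, and the parental line was not analysed here. Cells received PBS vehicle (Blank), histidine at 4 mM (His), 6-MP at 1.0 μg/mL, or both compounds (His+6-MP, the combined treatment) for 48 h. There was 1 library per treatment, so the spread between replicates is unknown, and p-values were not computed. Intervals are exact 95% intervals on recovered reads, cover counting error only, and compare libraries rather than treatments.

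Long noncoding RNAs are transcripts without a recognised long open reading frame that act as RNA, in some cases as scaffolds of nuclear bodies or as decoys for RNA-binding proteins. Others serve mainly as precursors from which microRNAs are cut, and many start beside or opposite a protein-coding gene. In B-lineage leukemia they are known for microRNA precursors such as MIR17HG and MIR155HG and for transcripts that respond to p53, the transcription factor activated by DNA damage.

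The libraries held 12899122 reads for the combined treatment, the fewest, to 15486376 for histidine, the most. Genes with a value above 0 numbered 23635 to 23978 in the other 3 libraries and 25443 in the combined library, although that library had the fewest reads, and the part of this in the results was not tested. Of 10 B-lineage markers, 9 were in the table, at 11.8 to 625 FPKM, and none was under 1 FPKM in every library. The summed level of these 9 was 1540, 1550, 1630 and 1543 FPKM for Blank, His, 6-MP and His+6-MP. Of the markers of other lineages, MPO, a granule enzyme of myeloid cells, was at 26.4 to 30.5 FPKM in the first 3 libraries and at 41.0 FPKM in the combined library, CD14 was under 1 FPKM in every library, and LYZ reached at most 1.39 FPKM. The 3 erythroid markers summed to 0.159 to 0.492 FPKM. COL1A1, the only stromal marker of 3 in the table, was at 0.869 to 1.05 FPKM in the first 3 libraries and at 2.04 FPKM in the combined library. The T cell markers were not analysed here. The part of other cells in the results was not tested, and in these bulk libraries a change in cell number of a type and a change of RNA per cell cannot be told apart.

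Members were spread over 23 chromosomes, and their mean levels ran from 5.03 to 377 FPKM with a median of 7.95. Only 24 were at 20 FPKM or more. The lengths behind the FPKM values ran from 209 to 22767 bases, and 92 members had under 100 reads in at least 1 library. Symbols came from the deposited table for 94 members and from the gene name table for 21, and 105 were known by identifier only. The spans of 113 members overlapped a protein-coding gene, and 17 overlapped another member. Since it is not stated whether strand was used in counting, reads of an overlapping gene on either strand may be included in these values.

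A transcript known by identifier only, ENSG00000253134 (chr5:158275711-158278813), had the highest level. It measured 406 FPKM in Blank, 408 in His, 391 in 6-MP and 304 in His+6-MP. The combined library was thus the lowest of the 4, with a log2 fold change against Blank of -0.42 and a counting interval of -0.52 to -0.32. Next came ENSG00000288008 at 87.1, 83.3, 96.1 and 112 FPKM, in the same order of libraries, where the combined library was the highest. NORAD, an abundant cytoplasmic RNA that binds PUMILIO proteins, followed at 71.1, 69.1, 79.5 and 85.1 FPKM. The other 7 of the 10 highest members were ENSG00000227706, ANKRD10-IT1, ENSG00000285718, FGD5-AS1, ENSG00000272733, LINC02866 and ENSG00000233064, with means of 32.6 to 54.2 FPKM. Of these 7, LINC02866 was at 22.9, 23.4 and 30.5 FPKM in Blank, His and 6-MP and at 54.0 FPKM in His+6-MP, with log2 fold changes of 1.20 against Blank, 1.17 against His and 0.80 against 6-MP. BLACE, a transcript named for its expression in B-ALL and chosen after its values were seen, was at 27.6, 31.5, 28.4 and 33.2 FPKM.

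With histidine or 6-MP alone few members were far from their level in Blank. Fold changes are differences of log2(FPKM + 1), a scale that compresses changes at low levels, and a difference of 1 or more in either direction counted as past the threshold. No member passed it between His and Blank, where 0.285% of the 7369 genes with a mean of at least 5 FPKM did, although the count was 2 with a pseudocount of 0.1 FPKM or with TPM scaling. ATP1B3-AS1, named after its values were seen, was at 4.27 FPKM in Blank and 8.76 in His, with a log2 fold change of 0.89. Between 6-MP and Blank 1 member passed, beside 0.231% of all these genes, and between 6-MP and His none passed, beside 0.231%. The member was TIAM1-AS1, antisense to the gene of the Rac activator TIAM1 and named after its values were seen. It was at 2.46 FPKM (29 reads) in Blank, 5.73 in His, 6.74 in 6-MP and 9.05 in His+6-MP, so that Blank was the lowest library. The median log2 fold change of the members was 0.042 for His against Blank and -0.0026 for 6-MP against Blank, beside 0.0036 and 0.0032 over all genes. For His against Blank, 61.4% of the members were above 0, beside 51.3% of all genes, and for 6-MP against Blank 49.5% were, beside 51.3%. The counting interval of the read ratio lay above 0 for 30 members and below 0 for 8 in His against Blank, and above 0 for 18 and below 0 for 17 in 6-MP against Blank. Over all genes these shares were 14.4% and 12% for His, and 12.2% and 9.8% for 6-MP.

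The combined treatment differed from this. Against Blank 26 members were past the threshold as higher and 2 as lower, where 2.92% and 1.19% of all genes were. Against His the members numbered 27 higher and 2 lower, beside 2.48% and 1.1% of all genes. Against 6-MP they numbered 23 and 2, beside 2.56% and 1.09%. The 3 comparisons share the combined library and are not independent. The median log2 fold change of the members was 0.31 against Blank, 0.28 against His and 0.33 against 6-MP, while over all genes it was 0.065, 0.054 and 0.060. Against Blank, 162 of the 220 members (73.6%) were above 0, beside 57.2% of all genes. In 98 members all 3 counting intervals of the combined library lay above 0, and in 15 all 3 lay below 0, beside 35.1% and 25.3% of all genes. Such counts depend on the number of reads, which differs between the sets.

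**Figure D1:**
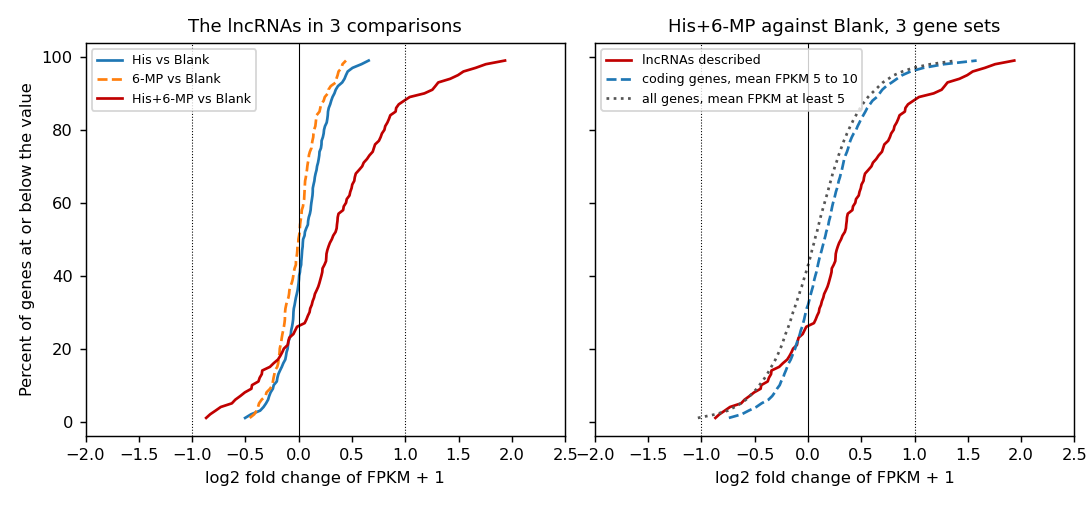
Cumulative distributions of the log2 fold change of FPKM + 1 (x axis) against the percent of genes at or below each value (y axis), drawn from the 1st to the 99th percentile. The left panel shows the 220 lncRNAs in 3 comparisons with Blank, and the right panel shows the combined treatment against Blank for these lncRNAs, for 2361 coding genes with a mean of 5 to 10 FPKM and for all 7369 genes. The red curve of the lncRNAs lies to the right of the others over most of its course, with a median of 0.31.

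The rule takes the mean over all 4 libraries, so a lncRNA that was high only in the combined library could enter through that library. Of the members, 27 had a mean under 5 FPKM over Blank, His and 6-MP. When the level was taken from these 3 libraries instead, an alternative chosen after seeing the data, 200 lncRNAs remained in the selection. Of these 13 were higher and 4 lower than Blank, beside 2.15% and 1.37% of the 7174 genes selected in the same way. Against His 15 were higher and 4 lower, beside 1.71% and 1.23%, and against 6-MP 11 and 3, beside 1.8% and 1.2%. The lower counts, 1.5% to 2% of the 200, were thus near the share of all genes. The median against Blank was 0.23.

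Level and biotype moved with the values too. Coding genes with a mean of 5 to 10 FPKM had a median log2 fold change of 0.16 against Blank, above the 0.057 of all coding genes over 5 FPKM. The 205 processed pseudogenes above 5 FPKM had a median of 0.073, and the 1125 lncRNAs with means of 1 to 5 FPKM had one of 0.31, like the members. The 15 snoRNA host lncRNAs had a median of 0.30, with 3 higher and 2 lower than Blank past the threshold. No test compared these sets, and the part of level in the members' values was not tested.

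Together the members took 0.596% of the reads in Blank (interval 0.59206% to 0.60004%), 0.619% in His (0.615% to 0.623%), 0.596% in 6-MP (0.5918% to 0.5995%) and 0.775% in His+6-MP (0.770% to 0.780%). The combined library was the highest, and its interval did not overlap the others. However, the members were chosen by a mean that includes this library, and 27 of them were under 5 FPKM on average over the others. The rule itself thus favours the combined library here, and the share was not computed for a selection made without it. All 7722 lncRNAs of the table took 1.45%, 1.53%, 1.46% and 2.07% of the reads in the same order.

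The combined library stood apart, that is, past the threshold in the same direction against each of the other 3 libraries, in 20 members as higher and 1 as lower. Over all genes, 1.87% stood apart as higher and 0.746% as lower. No member stood apart in any of the other 3 libraries. For all 21 members each of the 3 counting intervals excluded 0. Of the 20 higher members, 10 were under 5 FPKM in each of the other libraries, and 12 had a mean under 5 FPKM over those libraries. With the level taken from the other 3 libraries, 8 lncRNAs (4%) stood apart as higher and 2 (1%) as lower, beside 1.17% and 0.85% of all genes selected in this way. The 8 were MALAT1, CRNDE, TMEM263-DT, ARPP21-AS1, LINC02970, ENSG00000237293, ENSG00000267521 and ENSG00000267568, while PURPL, the member with the widest gap, was not in that selection. Departure from additivity, the log2 level of the combined library minus those of His and 6-MP plus that of Blank, was at least 1 in size in 29 members, with 26 positive and 3 negative, beside 2.52% and 1.3% of all genes. The highest departures were those of PURPL (2.32), ARPP21-AS1 (1.84) and CCNY-AS1 (1.76), and the lowest those of ENSG00000273568 (-1.74), MIR17HG (-1.07) and ENSG00000276668 (-1.01).

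**Figure D2:**
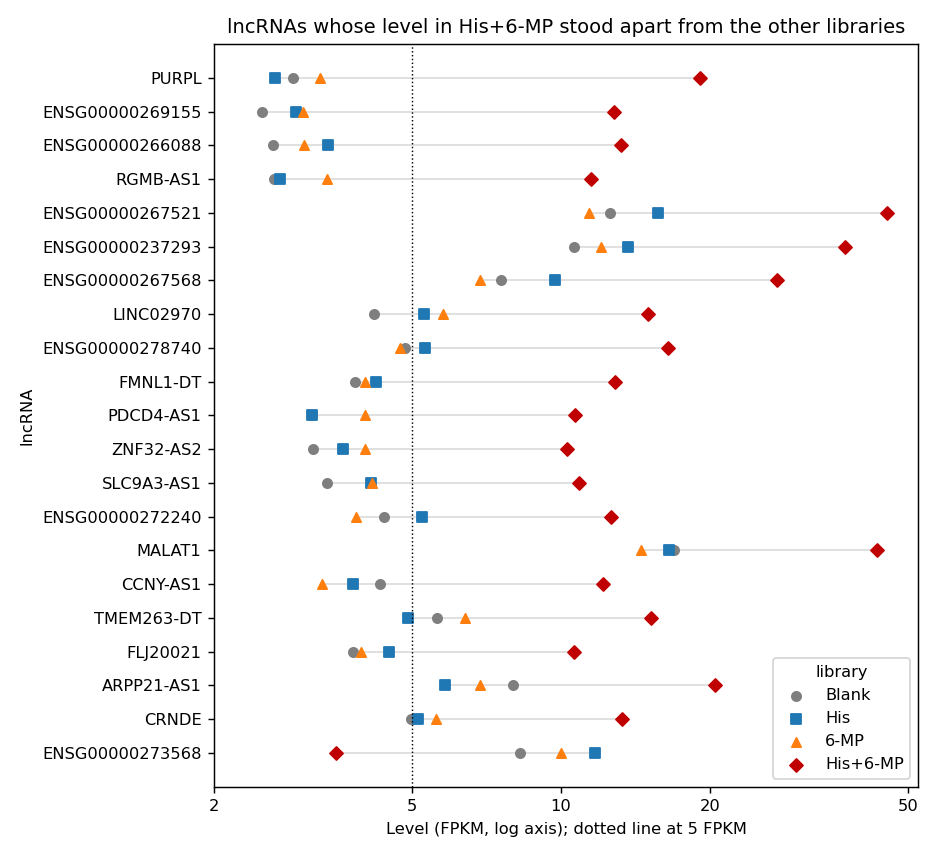
Level in FPKM (log axis) of the 21 lncRNAs for which the combined library stood apart from each of the other 3, with 1 point per library and the dotted line at 5 FPKM. In 20 rows the red diamond of the combined treatment lies to the right of the 3 other points, at 10.3 to 45.4 FPKM, and in the lowest row (ENSG00000273568) it lies to the left.

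PURPL, a p53-induced RNA known for keeping p53 levels low, showed the widest gap. It was at 2.88 FPKM (231 reads) in Blank, 2.65 (230 reads) in His, 3.27 (281 reads) in 6-MP and 19.1 (1378 reads) in His+6-MP. The combined library was far above the others, which lay close together. The log2 fold change was 2.37 against Blank, 2.46 against His and 2.23 against 6-MP, and the log2 read ratio against Blank was 2.73, with an interval of 2.52 to 2.93. PURPL lies at chr5:27217714-27496994 on the plus strand, and the nearest coding gene of the table, DROSHA, at 3903500 bases, had a log2 fold change of 0.23 against Blank. Its promoter in the RefSeq table (chr5:27472042-27472341, plus strand, GRCh38.p14) starts inside the deposited span and is printed because a search added after the data were seen found 2 copies of the 10-base p53 consensus in it. These are in capitals, begin 127 and 117 bases before the start and lie side by side.

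PURPL promoter: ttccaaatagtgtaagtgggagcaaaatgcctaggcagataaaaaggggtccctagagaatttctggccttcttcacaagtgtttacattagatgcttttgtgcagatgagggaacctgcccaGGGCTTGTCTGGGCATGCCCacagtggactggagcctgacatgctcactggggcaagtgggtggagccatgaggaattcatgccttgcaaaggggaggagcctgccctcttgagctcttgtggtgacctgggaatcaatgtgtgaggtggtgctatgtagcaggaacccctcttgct

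Of the 14136 genes of the table with a promoter in RefSeq, 812 (5.74%) held the p53 consensus, and 3 held a pair of copies side by side as PURPL does. Among the 80 members with a promoter, 8 (10%) held the consensus and 1, PURPL, held such a pair. Beside PURPL, LINC02970 was the only one of the 11 members standing apart with a promoter that held it, and MIR17HG held a copy 43 bases before its start. A match is a description of these letters and not a sign that p53 bound there.

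The other transcripts fixed as p53-linked were mostly under the level of the selection. Of 12 symbols 8 were in the table, all 8 were above 0 in the combined library against Blank, and in 5 the counting interval lay above 0. Of all lncRNAs of the table at any level 63.6% were above 0, 16.1% had an interval above 0 and 3.17% passed the threshold in either direction. LNCTAM34A, 1 of the 8, rests on 1 read. Past the threshold were PURPL and PINCR, a p53-induced RNA, which was at 0.0941, 0.145, 0.0585 and 2.33 FPKM with 3, 5, 2 and 67 reads. TP53TG1, another p53 target, was at 0.262, 0.297, 0.266 and 1.11 FPKM, with a log2 read ratio of 2.08 against Blank (interval 1.39 to 2.83). PVT1, the neighbour of MYC, was at 0.537, 0.634, 0.546 and 1.25 FPKM. In each of these the combined library was the highest, at levels where the log2(FPKM + 1) scale compresses the difference. NEAT1, the scaffold of paraspeckles, was at 5.73, 6.32, 5.73 and 7.44 FPKM, with log2 fold changes of 0.33, 0.20 and 0.33 for the combined library against Blank, His and 6-MP.

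MALAT1, an RNA of nuclear speckles, was at 16.9 FPKM in Blank, 16.5 in His, 14.5 in 6-MP and 43.3 in His+6-MP, with 1962 to 4936 reads. The combined library was again the highest, by a log2 fold change of 1.31, 1.34 and 1.52 against Blank, His and 6-MP. In 6-MP alone MALAT1 was slightly under Blank, with a log2 fold change of -0.21 and an interval of -0.31 to -0.13. These are levels in poly(A) libraries, and how much of the MALAT1 or NEAT1 RNA each library captured was not measured. CRNDE, an RNA that starts head to head with the homeobox gene IRX5, was at 4.98, 5.15, 5.61 and 13.3 FPKM with 1049, 1173, 1266 and 2516 reads, and had log2 fold changes of 1.25, 1.21 and 1.11 for the combined library. IRX5, 1676 bases away, was at 2.04, 1.95, 2.32 and 7.28 FPKM, with a log2 fold change of 1.45 against Blank, and was highest in the same library as CRNDE. The promoters of both lncRNAs are shown because they differ in composition from that of PURPL. Their GC content was 73.7% for MALAT1 and 80% for CRNDE, against 52% for PURPL, and the capitals mark GC boxes (GGGCGG on either strand) and, in CRNDE, a CCAAT box.

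MALAT1 promoter (chr11:65497488-65497787, plus strand): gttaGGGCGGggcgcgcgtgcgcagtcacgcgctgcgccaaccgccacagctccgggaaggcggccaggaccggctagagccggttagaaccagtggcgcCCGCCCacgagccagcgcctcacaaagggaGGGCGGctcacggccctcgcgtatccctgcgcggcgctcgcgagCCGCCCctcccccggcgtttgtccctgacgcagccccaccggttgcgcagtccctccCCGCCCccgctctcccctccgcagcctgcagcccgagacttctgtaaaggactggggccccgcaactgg

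CRNDE promoter (chr16:54928837-54929136, minus strand): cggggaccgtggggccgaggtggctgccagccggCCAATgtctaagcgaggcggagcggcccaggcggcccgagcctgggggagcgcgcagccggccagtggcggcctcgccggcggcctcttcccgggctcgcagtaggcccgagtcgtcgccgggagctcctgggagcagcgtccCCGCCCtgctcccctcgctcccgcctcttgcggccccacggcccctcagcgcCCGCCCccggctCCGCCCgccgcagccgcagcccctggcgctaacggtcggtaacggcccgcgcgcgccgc

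NORAD and OIP5-AS1, the other members of the group of decoys, did not pass the threshold. OIP5-AS1, a decoy for the RNA-binding protein HuR, was at 27.9, 28.2, 26.9 and 29.5 FPKM, and its log2 fold changes in the combined library were 0.08, 0.06 and 0.13. NORAD had 0.25, 0.30 and 0.10, where the medians of all members were 0.31, 0.28 and 0.33. Against Blank and His it was thus near the median member. In the list of nuclear bodies and chromatin 7 of 8 symbols were in the table, 6 were above 0 against Blank, and MALAT1 alone passed the threshold. Of all lncRNAs of the table at any level 63.6% were above 0 and 3.17% passed the threshold in either direction. FIRRE, a nuclear RNA of the X chromosome, was at 2.59, 2.85, 2.42 and 2.34 FPKM. TUG1, listed as protein-coding in this table, was at 27.8, 27.8, 29.5 and 33.3 FPKM. MIAT was at 0.191, 0.228, 0.164 and 0.608 FPKM, so that its highest value was in the combined library.

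**Figure D3:**
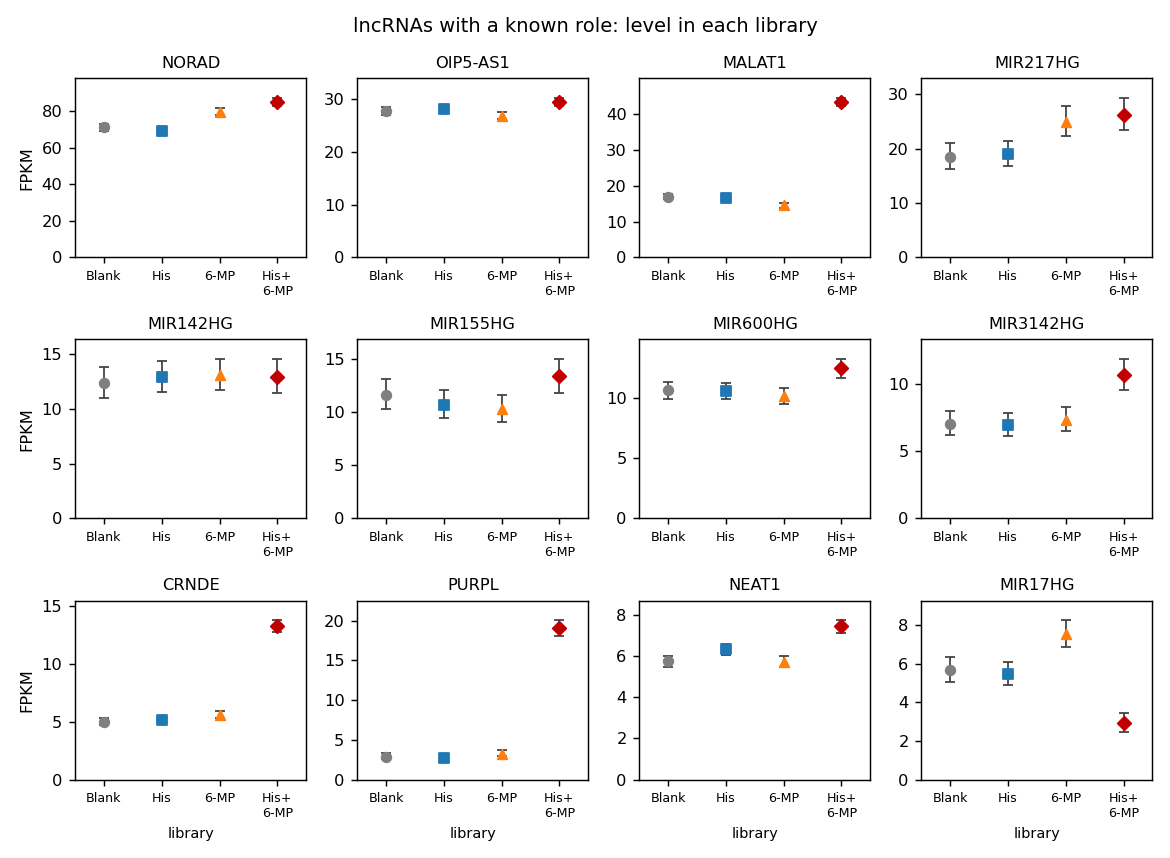
Level in FPKM (y axis, from 0) of the 12 members with a known role in each of the 4 libraries (x axis), with exact 95% Poisson intervals of the reads as bars, which cover counting error only. MALAT1, CRNDE and PURPL were highest by far in the combined library, MIR17HG was lowest there at 2.92 FPKM, and MIR142HG stayed between 12.4 and 13.1 FPKM.

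Precursors of microRNAs made up 6 of the members by symbol. MIR17HG, the MYC-activated precursor of the miR-17-92 cluster, went the other way from most members. It was at 5.68 FPKM in Blank, 5.46 in His, 7.53 in 6-MP and 2.92 in His+6-MP, with 307, 319, 436 and 142 reads. The 6-MP library was the highest and the combined library the lowest. The log2 fold change of the combined library was -0.77 against Blank, -0.72 against His and -1.12 against 6-MP, so that only the last passed the threshold, and all 3 counting intervals lay below 0. Its span (chr13:91347820-91354579) holds 6 hairpins within 787 bases. The mature arms that these are best known for are printed with bases 2 to 8, the seed that pairs with targets, in capitals, so that the families within the cluster can be compared.

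miR-17-5p: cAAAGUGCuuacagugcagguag
miR-20a-5p: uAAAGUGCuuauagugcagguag
miR-18a-5p: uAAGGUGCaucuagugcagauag
miR-19a-3p: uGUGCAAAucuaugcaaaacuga
miR-19b-3p: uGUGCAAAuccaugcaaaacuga
miR-92a-3p: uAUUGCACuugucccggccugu

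miR-17-5p and miR-20a-5p share the seed AAAGUGC and miR-19a-3p and miR-19b-3p share GUGCAAA, while miR-18a-5p differs from the first pair within its seed. Mature microRNAs are not in poly(A) libraries of this kind, so their levels were not measured. The other precursors were higher or level in the combined library. MIR217HG, the host of miR-217 and miR-216, was at 18.5, 18.9, 24.99 and 26.3 FPKM and thus higher in both libraries that received 6-MP, with a log2 fold change of 0.41 for 6-MP against Blank (interval 0.19 to 0.67 on the reads). MIR3142HG was at 7.02, 6.93, 7.32 and 10.6 FPKM, MIR600HG at 10.6, 10.6, 10.2 and 12.4 FPKM, and MIR155HG, the precursor known from activated B cells, at 11.7, 10.7, 10.3 and 13.4 FPKM. None of these passed the threshold in any comparison. MIR142HG, the host of the blood-cell microRNA miR-142, was at 12.4, 12.9, 13.1 and 12.9 FPKM, and its intervals for the combined library included 0 in each comparison. The arms of the 3 precursors best known from blood cells carry seeds unlike one another and unlike those of the miR-17-92 cluster.

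miR-155-5p: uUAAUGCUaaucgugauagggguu
miR-142-3p: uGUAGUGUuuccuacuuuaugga
miR-146a-5p: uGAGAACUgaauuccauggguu

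Among all 47 microRNA hosts of the table, at any level, 37 were above 0 against Blank, with the counting interval above 0 in 17 and below 0 in 2, while 63.6% of all lncRNAs of the table at any level were above 0, 16.1% had an interval above 0 and 1.68% one below 0. None was past the threshold against Blank, where 3.17% of all lncRNAs of the table were. Past it in another comparison of the combined library were MIR17HG, MIR130AHG, at 3.62, 2.504, 4.33 and 8.15 FPKM, and MIR4733HG. The last was at 0.142, 0, 0.132 and 1.26 FPKM from 1, 0, 1 and 8 reads. It passed only against His, with a log2 fold change of 1.18 that rests on few reads. Of the 5 MYC-linked symbols 4 were in the table, and 3 of these were above 0 against Blank. The counting interval lay above 0 in 2 of them, PVT1 and MINCR, and below 0 in MIR17HG alone.

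The lymphoid lncRNAs of the list lay on both sides of 0. Of 11 symbols 9 were in the table, of which 5 were above 0 against Blank, and none passed the threshold. The interval lay above 0 in 3 and below 0 in 1. Of all lncRNAs of the table at any level 63.6% were above 0, so the 5 of 9 were near that share. Of the same lncRNAs 16.1% had an interval above 0, 1.68% had one below 0, and 3.17% passed the threshold in either direction. DLEU2, the host of miR-15a and miR-16-1, was the one below 0, at 1.75, 1.91, 2.09 and 1.43 FPKM. LINC00926, a B-cell transcript, was at 2.28, 2.48, 2.08 and 1.86 FPKM. Of 3 transcripts of the X inactivation centre in the list, FTX was at 0.853, 1.04, 0.911 and 1.10 FPKM. Of 10 symbols of loci that encode microproteins, 6 were in the table, none was a member, and none passed the threshold against Blank. PIGBOS1, MTLN, SMIM30, NBDY and SMIM26 are listed as protein-coding in this table and so could not be members at any level. The means of SMIM30 and PIGBOS1 were 17.1 and 5.66 FPKM. SMIM26 was at 1.53, 1.65, 0.712 and 3.04 FPKM, from 24, 28, 12 and 43 reads. It passed the threshold against 6-MP, with a log2 fold change of 1.24 that rests on few reads. The 4 catalytic or scaffold RNAs of the list were not analysed here.

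Antisense and divergent transcripts made up much of the rest of the members that stood apart. RGMB-AS1, antisense to the BMP co-receptor gene RGMB, was at 2.64, 2.71, 3.37 and 11.5 FPKM. Its log2 fold changes were 1.78, 1.75 and 1.51, while RGMB itself was at 3.12, 3.86, 4.30 and 6.22 FPKM with 0.81 against Blank. FMNL1-DT was at 3.84, 4.23, 4.03 and 12.8 FPKM, while FMNL1, a formin gene of blood cells, was at 14.5, 15.5, 14.0 and 14.3 FPKM. CCNY-AS1 was at 4.31, 3.80, 3.29 and 12.1 FPKM, and CCNY, a cyclin gene, was at 15.1, 14.5, 15.9 and 15.6 FPKM. In both pairs the lncRNA was highest in the combined library and the coding gene stayed within its range in the other libraries. ARPP21-AS1 was at 7.99, 5.84, 6.85 and 20.5 FPKM beside ARPP21, a gene expressed in B-cell precursors and the host of miR-128, at 23.99, 22.9, 24.98 and 30.2 FPKM. PDCD4-AS1 was at 3.14, 3.15, 4.02 and 10.7 FPKM beside PDCD4, a translation inhibitor, at 6.51, 6.12, 8.69 and 11.95 FPKM. In these last pairs both transcripts were highest in the combined library. SLC9A3-AS1, ZNF32-AS2 and TMEM263-DT reached 10.8, 10.3 and 15.2 FPKM there, with log2 fold changes against Blank of 1.44, 1.44 and 1.29.

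For 63 members the symbol named a coding gene of the table, and in 47 of these pairs that gene was at 5 FPKM or more. Over the 47 pairs the median log2 fold change of the combined library against Blank was 0.30 for the lncRNAs and 0.028 for the coding genes. The lncRNA had the higher value in 33 of 47 pairs. However, all members had a median of 0.31 and all coding genes over 5 FPKM one of 0.057. Unpaired lncRNAs and coding genes were not compared, so the counts of pairs do not show a property of the pairing. Past the threshold were 7 lncRNAs and 1 coding gene, ANXA2R, which was named after its values were seen, and no pair had both. In either direction 12.7% of all members, 3.39% of coding genes over 5 FPKM and 4.11% of all genes over 5 FPKM passed it. The counts in the pairs were thus near the shares of members and of coding genes as a whole. Pearson's r between the changes of lncRNA and coding gene was 0.40 and Spearman's rho 0.37 across the 47 pairs, which come from the same 2 libraries and are not independent replicates. Some lncRNAs entered the pairs through the combined library, among them FMNL1-DT, CCNY-AS1, ZNF32-AS2 and PDCD4-AS1, all under 5 FPKM elsewhere. In the 40 pairs whose lncRNA had a mean of at least 5 FPKM without that library, a selection made after seeing the data, the medians were 0.26 and -0.053, the lncRNA was above in 26, and 3 lncRNAs were past the threshold in place of 7. Of all 200 lncRNAs selected in that way, 8.5% passed it against Blank. Among the 15 divergent pairs of the 47 the medians were 0.52 for the lncRNA and 0.028 for the coding gene, with the lncRNA above in 14. Among the 30 antisense pairs of the 47 they were 0.26 and -0.029, with the lncRNA above in 19. Of the 40 pairs, 12 were divergent, with medians of 0.58 and -0.20 and the lncRNA above in 11. Another 26 were antisense, with medians of 0.20 and -0.057 and the lncRNA above in 15. ZMPSTE24-DT, chosen after its values were seen, was at 8.52, 6.70, 7.91 and 16.1 FPKM, while ZMPSTE24, a protease gene of lamin A maturation, was at 26.1, 23.7, 25.2 and 19.1 FPKM. HK2-DT, chosen in the same way, was at 9.01, 9.93, 8.17 and 4.48 FPKM beside the hexokinase gene HK2 at 24.3, 26.4, 24.2 and 13.0 FPKM. The first pair thus parted in the combined library, and the second was lowest there in both of its transcripts.

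**Figure D4:**
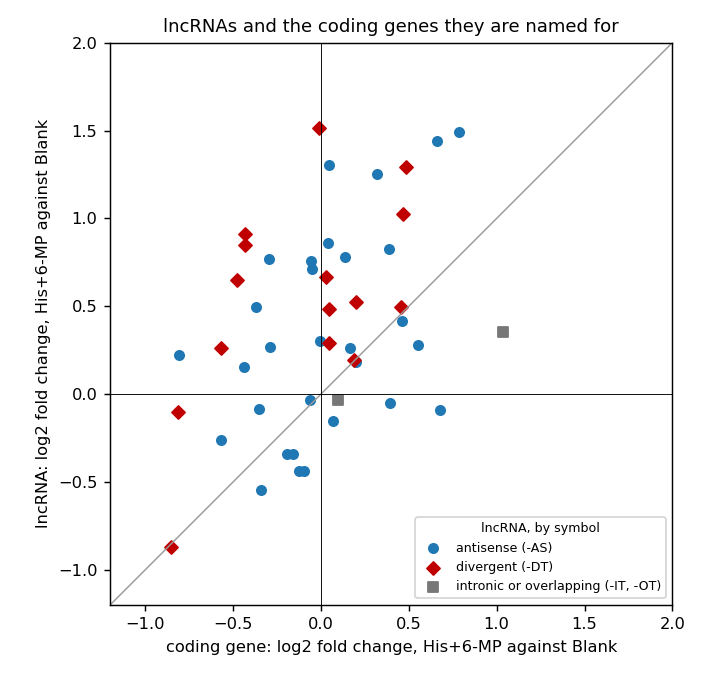
Log2 fold change of the combined treatment against Blank for 47 lncRNAs (y axis) and the coding genes they are named for (x axis), with 1 point per pair, coloured by the kind of symbol, and the line of equal change in grey. Most points lie above the line, 33 of 47, and 14 of the 15 divergent pairs do. All members also had a higher median than all coding genes over 5 FPKM, 0.31 beside 0.057.

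The remaining members that stood apart were known by identifier or lacked a named role. ENSG00000269155 on chromosome 6 was at 2.49, 2.92, 3.02 and 12.8 FPKM, and ENSG00000266088 on chromosome 17 at 2.62, 3.39, 3.03 and 13.2 FPKM. Their log2 fold changes against Blank were 1.98 and 1.97, next to that of PURPL. ENSG00000267521 (12.6, 15.7, 11.4 and 45.4 FPKM) and ENSG00000267568 (7.57, 9.73, 6.86 and 27.2 FPKM) overlap each other on the minus strand of chromosome 17 and may share reads, so their 2 values may be 1 observation. Their neighbour MGAT5B, on the opposite strand, was at 4.23, 4.43, 3.85 and 4.76 FPKM. ENSG00000237293, opposite EVA1A, was at 10.6, 13.6, 12.03 and 37.4 FPKM. ENSG00000278740, LINC02970, ENSG00000272240 and FLJ20021 reached 16.4, 14.9, 12.6 and 10.6 FPKM in the combined library, with log2 fold changes against Blank of 1.57, 1.62, 1.34 and 1.27.

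ENSG00000273568 was the only member apart as lower. It was at 8.27, 11.7, 9.99 and 3.51 FPKM, from 34, 52, 44 and 13 reads, so that its log2 fold changes of -1.04, -1.49 and -1.28 rest on few reads. It lies on the same strand inside PUS1, a pseudouridine synthase gene, which was at 8.57, 9.15, 8.56 and 4.61 FPKM and thus also lowest in the combined library. Reads of the 2 genes may not be told apart. ENSG00000276668, within OVCH2 on the same strand, was at 10.1, 11.2, 10.5 and 5.27 FPKM.

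The median of the combined library against Blank was above 0 in each class of members by symbol, place, length, exon number and level. By place, 29 members that start head to head with a coding gene had a median log2 fold change of 0.48 against Blank, 83 on the opposite strand of one 0.27, 24 on the same strand 0.23, and 78 apart from coding genes 0.30. Of the 20 members apart as higher, 11 lay opposite a coding gene, 7 apart from coding genes and 2 head to head. By length, 102 members of up to 1000 bases had a median of 0.36, 43 of up to 2000 bases 0.22, 44 of up to 5000 bases 0.33 and the 31 longer ones 0.31. By level, the median was 0.33 for 85 members at 5 to 7 FPKM, 0.37 for 55 at 7 to 10 FPKM, 0.25 for 56 at 10 to 20 FPKM and 0.26 for 24 at 20 FPKM or more, and 11, 4, 3 and 2 of them stood apart as higher. The mean behind these levels includes the combined library. Of the 20 members apart as higher, 12 had a mean under 5 FPKM over the other libraries. Both the medians and the counts by level thus depend in part on the rule of selection. By symbol, the 16 divergent transcripts had a median of 0.51 and the 46 antisense transcripts 0.29. These are descriptions of 1 library against another, and no class was tested against the rest.

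The members just inside the level of selection were NBR2 at a mean of 5.03 FPKM, RGMB-AS1 at 5.05 and ATP2A1-AS1 at 5.06. NBR2, the neighbour of BRCA1, was at 3.71, 3.898, 4.41 and 8.09 FPKM, and ATP2A1-AS1 at 4.91, 5.76, 5.03 and 4.52 FPKM. Just outside were ENSG00000228778 at 5.00, ASB16-AS1 at 4.98 and ENSG00000205041 at 4.96 FPKM, all 3 highest in the combined library, at 6.58, 6.78 and 6.10 FPKM.

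Promoters of 300 bases, 250 before the start and 50 after it, were found in the RefSeq table by symbol for 80 of the 220 members, including 11 of the 21 that stood apart. Sequences were searched on both strands, and no letters beyond this window were read. The GC box (GGGCGG) was in 37 of the 80 (46.3%), beside 72.9% of 5704 genes with a mean of at least 5 FPKM and 62.4% of all 14136 genes. The CCAAT box (CCAAT) was in 37.5% of the members, 38.8% of the genes above 5 FPKM and 36.0% of all genes. The E-box (CACGTG) was in 8.75%, 10.7% and 9.10%, and the ETS core (GGAA) in 96.3%, 96.0% and 95.1%. The cyclic AMP response element (TGACGTCA) was in none of the 80 and in 2.84% of all genes. Median GC content was 63.2% in the members and 65.7% in the genes above 5 FPKM.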

How the data were processed

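Poly(A) RNA of Reh-6-MPR cells was measured by RNA-seq (TruSeq Stranded mRNA kit) in 4 libraries, 1 per treatment, grouped by the treatment label. The authors deposited FPKM values per gene, with identifier, symbol, biotype and position. The submitters' processing notes name Trimmomatic, HISAT2, Cufflinks, HTSeq and GRCh38 without versions or roles, and the strand setting and annotation release are not given in the sources used here. FPKM shifts all genes when a few abundant genes change.

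The members and lists were chosen with earlier results of these data known. Genes named are the 10 highest members, those in 9 lists of known roles, those for which the combined library stood apart, the 3 just above and just below 5 FPKM, and the 3 highest and lowest departures from additivity. Coding neighbours and partners of members, listed genes that are no members, and other genes so marked in the text, were named with their values in view. Lists hold p53-linked, MYC-linked and lymphoid lncRNAs, nuclear bodies and chromatin, decoys, X inactivation, catalytic RNAs, microproteins and microRNA hosts.

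Reads were recovered from the steps of the FPKM values (tolerance 0.01 read) and were whole for 29832 of 29833 genes. For 2581 genes, 5 of them members, the shortest length was multiplied towards the GENCODE 29 length by a rule set after totals were compared, and recovered reads summed to 100% to 100.035% of the denominators, which is therefore no check of that rule. Intervals are exact Clopper-Pearson 95% intervals. Fold changes used a pseudocount of 1 FPKM and were not tested. The authors used DESeq2, which was not repeated because it needs replicates. Alternatives were a pseudocount of 0.1, median-ratio and TPM scaling, a threshold of 1.5, a mean of 10 FPKM, no filter, lncRNAs that overlap no coding gene, and, added later, the level of the other 3 libraries. Sequences are from RefSeq (GRCh38.p14), matched by symbol or by position. Scripts were tested on simulated data. Scripts ran in Python 3.11.15 with matplotlib 3.10.9, scipy 1.17.1, pandas 2.3.3 and numpy 2.4.6.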

Additional observations from a re-analysis of the deposited data

Results flagged for a closer look

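In 4 members an effect turned its direction with the other compound, with a departure from additivity of at least 1 and counting intervals that excluded 0 on both sides. They were 1.82% of the members, while 0.991% of all 7369 genes met the same rule. The difference between the effects was not tested, since there was 1 library per treatment. For MALAT1 the log2 fold change of 6-MP was -0.21 without histidine and 1.34 with it, a difference of 1.55. For MIR17HG it was 0.35 without histidine and -0.72 with it, a difference of -1.07. For ZMPSTE24-DT the log2 fold change of histidine was -0.31 without 6-MP and 0.94 with it, a difference of 1.25. For TSPAN14-AS1 it was -0.50 without 6-MP and 1.17 with it, a difference of 1.67. The intervals of the values without 6-MP ended close to 0, at -0.034 for ZMPSTE24-DT and at -0.017 for TSPAN14-AS1.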

How the results depend on the processing

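No paired analysis was possible because the 4 treatments had a single library each, which also left no replicate to leave out. Median-ratio scaling, with log2 divisors of 0.050 for the combined library and -0.016 to -0.0094 for the others, left counts of members within 1.5 times (26 against Blank, 31 against His, 24 against 6-MP and 21 apart) and put the medians at 0.25, 0.23 and 0.27. A pseudocount of 0.1 FPKM and TPM scaling each moved 1 of these summaries beyond that range, the count for His against Blank, to 2 from 0. No alternative reversed a named member past the threshold, but none of those applied to named members could have done so. A pseudocount cannot change a sign, and the scalings shifted the libraries by little beside the threshold. Among values of named members, 5 changed sign under TPM scaling and 3 under median-ratio scaling. As reported these were at most 0.019 and 0.058 in size. For named members, 203 values under a pseudocount of 0.1, 203 under median-ratio scaling and 204 under TPM scaling moved by less than the counting error, and 7, 7 and 6 moved by more. At a threshold of 1.5 the counts were 11 against Blank, 5 against His, 10 against 6-MP, 10 for departure from additivity, 4 apart, and 0 for 6-MP against Blank. The shares of all genes were not computed at this threshold or under the scalings and the other pseudocount. These counts therefore do not show whether the members exceeded all genes there.

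With a mean of at least 10 FPKM (80 lncRNAs) the counts were 6 against Blank, 8 against His, 6 against 6-MP, 5 for departure, 5 apart and 0 for 6-MP against Blank, whose median was -0.034. Without a filter (7694 lncRNAs) they were 240, 232, 231, 339 and 115, with 35 for His and 26 for 6-MP against Blank, and medians were 0.066, 0.052 and 0.068 for the combined library and 0 for His against Blank. Without lncRNAs that overlap a coding gene (107 left) they were 14, 14, 12, 12 and 9, with 0 for 6-MP against Blank, and the median of His against Blank was 0.016. With the level taken from the other 3 libraries, chosen after seeing the data (200 lncRNAs), they were 17, 19, 14, 19 and 10, with 0 for 6-MP against Blank, and medians of 0.23 against Blank and 0.20 against His. In these 4 selections the construction itself changed the genes counted. Against Blank without a filter, 3.17% of all 7722 lncRNAs and 4.17% of all 29833 genes passed the threshold. There the lncRNAs thus did not exceed all genes. For the selections at 10 FPKM and without overlap the shares of all genes were not computed. Members took 1.09%, 1.14%, 1.09% and 1.37% of the summed FPKM in Blank, His, 6-MP and His+6-MP, and without NORAD, the member with the most reads, 0.558%, 0.581%, 0.553% and 0.729% of the reads. The combined library was highest each time, although the rule that chose the members favours it.

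Precision is limited by single libraries and, for 92 members, by under 100 reads in at least 1 of them.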
